A study of Caenorhabditis elegans with 6 samples.

Results

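The *hlh-30* knockout was set against its control across all genes of *Caenorhabditis elegans* worms that make human Aβ in body wall muscle. Of the 22380 genes listed in the knockout table, the 15749 that reached 10 normalized reads in 2 or more of the 4 libraries were kept. A normalized read is a read divided by a size factor for its library. RNA was sequenced from whole nematodes on day 1 of adulthood, with 2 libraries labelled *hlh-30* ko and 2 labelled wt. The knockout strain, PHX6883, carried the allele *hlh-30(syb6883)*, in which the first 4 exons had been removed, in the background of the Aβ strain GMC101. The control was GMC101 itself, so the control label wt refers to *hlh-30* and not to a worm free of transgenes. Both groups carried *unc-54*p::Aβ1–42 with the *unc-54* 3′-UTR, driven in body wall muscle, together with *mtl-2*p::GFP, an intestinal marker. Worms of both groups were raised at 20°C until young adulthood and then held for 24 h at 25°C, which induces Aβ. The series also holds 2 libraries of worms that overexpress *hlh-30*, which were compared with the same 2 control libraries. The sample labels name GMC101 and the deposited design text names CL4176, another Aβ strain. The labels do not state that the 2 libraries of a group came from separate cultures, so the p-values measure the spread between these libraries, which may be technical. The labels also do not tell which knockout column belongs to which numbered sample, and libraries 1 and 2 are named here in the order of the table.

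HLH-30 is the worm counterpart of mammalian TFEB, a basic helix-loop-helix transcription factor. It activates genes of autophagy and of the lysosome, the acidic compartment that breaks down proteins, lipids and sugars. The TOR kinase holds it in the cytoplasm of fed animals, and fasting, heat and infection release it into the nucleus. In the worm intestine it is known for controlling lysosomal lipases, the fasting response and genes of host defence.

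The libraries were of similar depth, with 18242607 and 19300834 reads on genes in the knockout and 18097925 and 18980205 in the control. Genes annotated as ribosomal RNA took 0.985% and 0.606% of reads in the knockout libraries, against 0.483% and 0.374% in the control libraries, and any part of this difference in the results was not tested. All the listed muscle (36), intestinal (28), oocyte (30) and neuronal (27) marker genes passed the filter.

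The targeted gene had 2104 and 3005 normalized reads in the knockout libraries, against 3049 and 3258 in the control libraries. Knockout library 1 was low and library 2 was close to the lower control. The log2 fold change was -0.33 (standard error, SE, 0.17; limma, Benjamini-Hochberg adjusted p = 0.511). The table gives 1 value for the gene, which it places on the minus strand of chromosome IV from 4015615 to 4019039, and the Ensembl annotation of WBcel235 gives it a longer span, from 4014793 to 4034951. How many of the removed exons lie in the counted part was not tested, and no value per exon was used here, so this total was not used as a check of the deletion.

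In limma on log2 of the normalized reads plus 1, 2 of the 15749 genes (0.0127%) differed by 2-fold or more with an adjusted p below 0.05, and 1729 had an unadjusted p under 0.05. *apc-10*, on chromosome V from 10425362 to 10426317, encodes a subunit of the anaphase-promoting complex, the ubiquitin ligase that drives the exit from mitosis. It had 35.6 and 34.2 normalized reads in the knockout libraries, against 598.7 and 603.6 in the control libraries. The groups lay far apart and each pair was nearly equal. The log2 fold change was -4.07 (SE 0.20; limma adjusted p = 0.0131). The other 13 tested genes of the complex and its activators did not pass the test, and none had both knockout libraries 2-fold beyond both controls. The 11 other genes tested within 25 kb of *apc-10* had a median log2 fold change of 0.10. *Y32F6A.4*, one of these neighbours, had 598.6 and 597.8 in the knockout libraries, against 636.2 and 669.4 in the control libraries. The low value was thus measured at *apc-10* and not in this neighbour. Another neighbour, *tag-314*, was higher with the knockout, at 103.8 and 93.5 normalized reads, where the controls had 59.3 and 58.8. Its log2 fold change was 0.73 (limma adjusted p = 0.428). edgeR on recovered reads called *apc-10* as well (adjusted p = 0.00902). With either control library left out limma called neither gene of this comparison, and *apc-10* had an adjusted p of 0.964 without control library 1 and 0.984 without control library 2.

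The second gene was an unannotated locus that the table places on the minus strand of chromosome X from 16931620 to 16943321. It had 5505 and 4785 normalized reads in the knockout libraries, against 1745 and 1679 in the control libraries. Both knockout libraries were more than 2-fold above both controls. The log2 fold change was 1.58 (SE 0.11; limma adjusted p = 0.0432). In the Ensembl annotation of WBcel235 its span overlaps the noncoding gene *C30E1.9* on the other strand, to which the table gives a separate span. Since strand-specific counting is not stated, reads of the locus and of that gene cannot be told apart. Its limma adjusted p was 0.109 with no filter on low values, and 1 and 0.984 without control library 1 and 2.

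DESeq2 on the recovered whole reads, which gave an adjusted p for 12390 genes, called 62 at the same thresholds (0.394%), 51 higher and 11 lower in the knockout. Of these, 32 also met the rule on separate libraries given next, and 7 were at least 2-fold apart between the knockout libraries. With 2 libraries against 2, an exact permutation test of a single gene cannot go below p = 0.333. The libraries are therefore also described one by one, with a rule that uses no p-value.

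By that rule a gene was set apart where both knockout libraries lay at least 2-fold above the higher control, or at least 2-fold below the lower control, on the scale of normalized reads plus 1. It held for 84 genes above the controls (0.533%) and for 24 genes below them (0.152%). Of these 108 genes, 94 were protein-coding. The gene closest inside the rule had a gap of 1.00 log2 units above and 1.02 below, and the closest outside had 0.99 in both directions. Many of them were weakly expressed: 39 of the 84 had a knockout mean of at least 50 normalized reads, and 7 of the 24 had such a control mean. No gene other than *apc-10* and the unannotated locus on chromosome X passed limma's test, so the values that follow are descriptions.

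**Figure D1:**
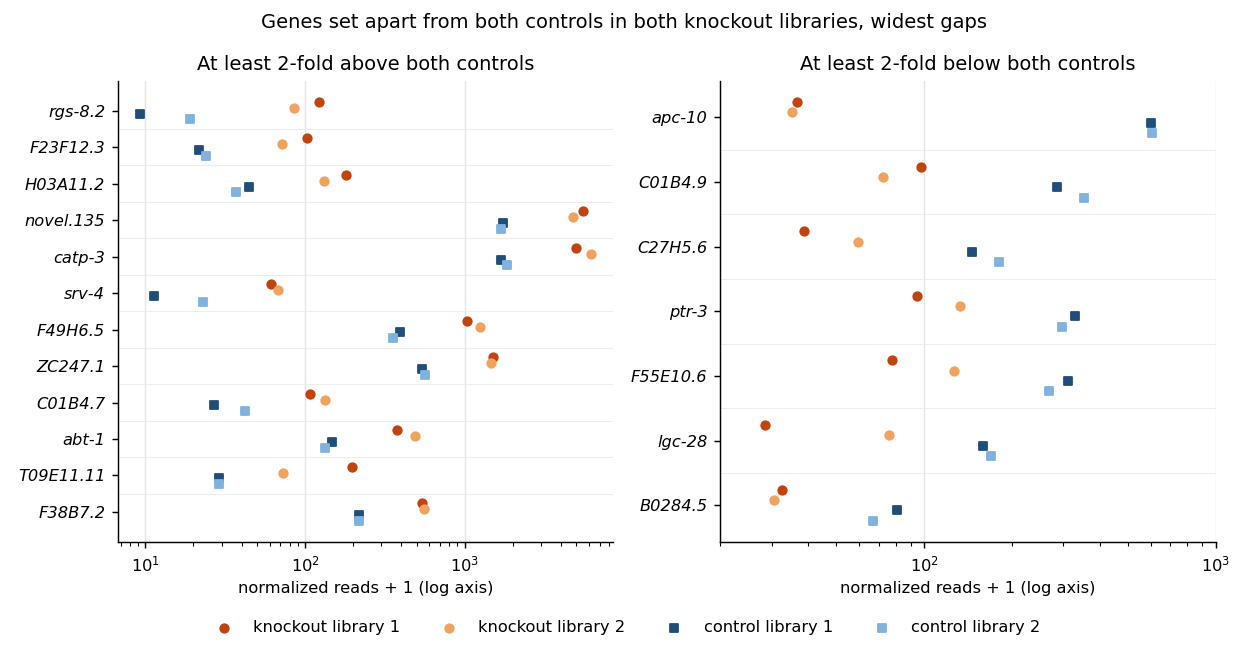
Normalized reads plus 1 on a log axis in each knockout library (circles) and each control library (squares), for the 12 genes with the widest gap above both controls and the 7 below them that had a group mean of at least 50. The circles of each gene lie on one side of both squares, and *apc-10* has the widest gap.

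Several genes above the controls encode transport proteins, which were named after their values were seen and not counted over a list. *catp-3*, a cation-transporting P-type ATPase, had 5007 and 6148 normalized reads in the knockout libraries, against 1691 and 1837 in the control libraries. Each knockout library was well over 2-fold above each control. The log2 fold change was 1.65 (SE 0.13; limma adjusted p = 0.0610), just outside the threshold, and DESeq2 gave an adjusted p of 1.06e-19. *abt-1*, an ABC transporter, had 373.6 and 489.5 in the knockout libraries, against 146.6 and 132.5 in the control libraries. *F41C3.2*, of the major facilitator family by its Pfam label, had 1325 and 1064 in the knockout libraries, against 414.8 and 506.0 in the control libraries. The gap between the groups was 1.45 log2 units for *catp-3* and 1.34 for *abt-1*, and 1.07 for *F41C3.2*, close to the limit of the rule. *gtl-2*, a TRPM cation channel known for magnesium excretion, had 227.0 and 282.2 in the knockout libraries, against 108.1 and 103.6 in the control libraries. *nhx-6*, a sodium-proton exchanger, was near the floor in the controls, with 40.7 and 28.7 in the knockout libraries, against 1.04 and 2.99 in the control libraries. *F23F12.3*, labelled as a sugar transporter, had 101.8 and 70.3 in the knockout libraries, against 20.8 and 22.9 in the control libraries.

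Several genes above the controls encode enzymes. The enzyme lists held 1 of 239 detoxification genes (0.418%) and 1 of 76 genes of fat metabolism (1.32%), beside 0.533% of all genes. They held 0 of 46 acid hydrolases and 0 of 32 genes of glycolysis and the TCA cycle. At the share of all genes, lists of this size would hold few or none. *F49H6.5*, with a radical SAM domain, had 1035 and 1241 normalized reads in the knockout libraries, against 392.9 and 355.6 in the control libraries. The log2 difference was 1.60 (SE 0.15; limma adjusted p = 0.120). *fmo-2*, a flavin-containing monooxygenase whose induction by fasting is known to need HLH-30, had 421.5 and 146.2 in the knockout libraries, against 62.4 and 62.8 in the control libraries, and the knockout libraries were themselves over 2-fold apart. The log2 difference was 1.97 (SE 0.49; limma adjusted p = 0.394). *fat-7*, a stearoyl-CoA desaturase, had 35.6 and 32.4 in the knockout libraries, against 4.16 and 7.97 in the control libraries. Beside these enzymes, *rhy-1*, a membrane protein that holds back the hypoxia-inducible factor HIF-1, had 371.6 and 297.0 in the knockout libraries, against 146.6 and 144.4 in the control libraries. Both *fat-7* and *rhy-1* had clearly separate groups and similar knockout libraries.

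Families gave few members each. Among 115 classes of gene names with at least 10 genes tested, 2 had 3 or more genes set apart in the same way. The astacin metalloproteases (*nas*) had 3 of 21 above the controls, and C-type lectins (*clec*) 3 of 123, or 14.3% and 2.44% beside 0.533% of all genes. *nas-8*, for example, had 56.0 and 75.9 normalized reads in the knockout libraries, against 27.03 and 20.9 in the control libraries, and *nas-24* and *nas-30* had like gaps. These proteases are secreted or membrane-bound enzymes, some of them known for digestion and for shaping the cuticle. Over all 47 metalloproteases tested, the median log2 fold change was 0.19, against 0.0014 over all genes. In 23 of them both knockout libraries lay above both controls by any amount and in 5 below, where 22.4% and 23.4% of all genes did so. The 3 lectins, *clec-99*, *clec-185* and *clec-210*, had at most 37.02 normalized reads in any library. They passed the filter through the knockout libraries alone.

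Signalling proteins and sensory genes were also present. *rgs-8.2*, a regulator of G-protein signalling, had 121.1 and 84.2 normalized reads in the knockout libraries, against 8.32 and 17.9 in the control libraries, the widest gap among genes above the controls with a mean of at least 50. *srv-4*, one of the serpentine receptors of chemosensory neurons, had 60.1 and 66.6 in the knockout libraries, against 10.4 and 21.9 in the control libraries. Of 118 chemoreceptor genes tested, out of 1039 listed, 3 lay above the controls (2.54%) and 2 below (1.69%), *str-168* and *sre-1*. Over all genes it was 0.533% and 0.152%. Besides *srv-4*, these genes had at most 18.7 normalized reads in any library. They passed the filter only through the group where they were high, so their shares were not read as a result. *gcy-33*, a guanylate cyclase of oxygen-sensing neurons, had 20.4 in both knockout libraries, against 5.20 and 8.96 in the control libraries. *hum-9*, an unconventional myosin, had 158.8 and 190.6 in the knockout libraries, against 62.4 and 64.7 in the control libraries. *ZC247.1* and *F38B7.2* had no domain label in the table. *ZC247.1* had 1493 and 1463 in the knockout libraries, against 540.5 and 561.8 in the control libraries, with a log2 difference of 1.42 (SE 0.11; limma adjusted p = 0.0610). *F38B7.2* had 538.5 and 552.5 in the knockout libraries, against 217.3 and 216.1 in the control libraries. The knockout pair was nearly equal in both of these genes. *H03A11.2* and the pseudogene *T09E11.11* also had wide gaps, and *T09E11.11* had 195.5 and 72.2 in the knockout libraries, against 28.1 and 27.9 in the control libraries.

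Genes below the controls were fewer. *ptr-3*, a member of the patched-related membrane proteins that act in moulting and lipid handling, had 93.7 and 131.4 normalized reads in the knockout libraries, against 327.4 and 295.8 in the control libraries. *F55E10.6*, a short-chain dehydrogenase by its Pfam label, had 76.4 and 125.9 in the knockout libraries, against 311.8 and 267.9 in the control libraries. *C27H5.6* had 37.7 and 58.3 in the knockout libraries, against 144.5 and 180.3 in the control libraries. *lgc-28*, a ligand-gated ion channel subunit, had 27.5 and 74.96 in the knockout libraries, against 158.001 and 168.3 in the control libraries. The pseudogene *B0284.5* had 31.6 and 29.6 in the knockout libraries, against 80.04 and 65.7 in the control libraries. The groups did not overlap in any of these genes, and in the 4 before it library 1 was the lower of the knockout pair. F-box and MATH genes, substrate adaptors of ubiquitin ligases, had 3 of 375 above and 3 below the controls, 0.800% each way. Over all genes it was 0.533% above and 0.152% below. The 3 below, *fbxb-64*, *fbxc-15* and *math-21*, were weakly expressed, with at most 15.9 normalized reads in any library. They passed the filter through the control libraries alone. *gst-9*, a glutathione transferase, had 7.13 and 9.25 in the knockout libraries, against 19.8 and 22.9 in the control libraries.

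Neighbouring genes of opposite direction were found on chromosome V. *C01B4.9*, from 2483004 to 2487785, had 96.7 and 71.3 normalized reads in the knockout libraries, against 283.8 and 352.6 in the control libraries. *C01B4.7*, which starts 6450 bp further on and ends at 2499001, had 105.9 and 133.3 in the knockout libraries, against 25.99 and 40.8 in the control libraries. Both carry the major facilitator label, a family of membrane transporters. The Ensembl annotation of WBcel235 gave no span under either of these names. In it the minus-strand gene *mct-2* overlaps both spans, and the plus-strand gene *Y19D10A.4* overlaps that of *C01B4.7*. Their reads are therefore uncertain where they are shared. There were 8 pairs of set-apart genes within 25 kb of each other, and this was the pair with opposite directions. The genes above the controls were 0.799% of those tested on chromosome V, 0.796% on X, 0.642% on IV, 0.355% on II, 0.350% on I and 0.246% on III, around the 0.533% of all genes. Those below were 9 of the 2816 genes tested on chromosome II, 8 of 3130 on V and 4 of 2137 on X, with 1 on each of I, III and IV.

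The overexpression libraries share both controls with the knockout and were normalized in a separate table, so their values are set beside these without a test. There *catp-3* had 3996 and 4730 normalized reads with overexpression, against 1721 and 1869 in the control. *abt-1* had 301.4 and 338.8 with overexpression, against 149.1 and 134.8 in the control. *C01B4.9* had 85.4 and 79.7 with overexpression, against 288.8 and 358.8 in the control, and *C01B4.7* had 248.6 and 143.0, against 26.4 and 41.6. *F55E10.6* had 883.0 and 906.9 with overexpression, against 317.3 and 272.6 in the control, above the controls where the knockout libraries lay below them. *rgs-8.2* had 2.88 and 103.6 with overexpression, against 8.46 and 18.2 in the control. These genes were picked after their values were seen, and because the controls are shared, a like or unlike direction was not tested. *apc-10* had 576.8 and 532.6 with overexpression, against 609.2 and 614.2 in the control, and lay near the control level there. The unannotated locus had 2008 and 4695 with overexpression, against 1776 and 1709 in the control, and its overexpression libraries differed from each other.

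Genes of the autophagy-lysosome pathway were listed from their names. None of the 46 acid hydrolases, 20 V-ATPase subunits, 18 lysosome membrane proteins, 27 autophagy genes or 23 genes of the TOR pathway and the partners of HLH-30 that were tested had both knockout libraries at least 2-fold beyond both controls. None passed limma's test. Over all genes 0.533% lay above and 0.152% below by that rule, and 0.0127% passed the test. At those shares, lists of this size would hold few such genes or none. The median log2 fold change was 0.19 for hydrolases, -0.04 for the V-ATPase, -0.01 for membrane proteins, -0.15 for autophagy genes and -0.05 for the TOR and HLH-30 list, against 0.0014 over all genes. Counting gaps of any size, 14 hydrolases had both knockout libraries above both controls and 8 had both below, where 22.4% and 23.4% of all genes did so. For autophagy genes it was 4 above and 13 below.

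**Figure D2:**
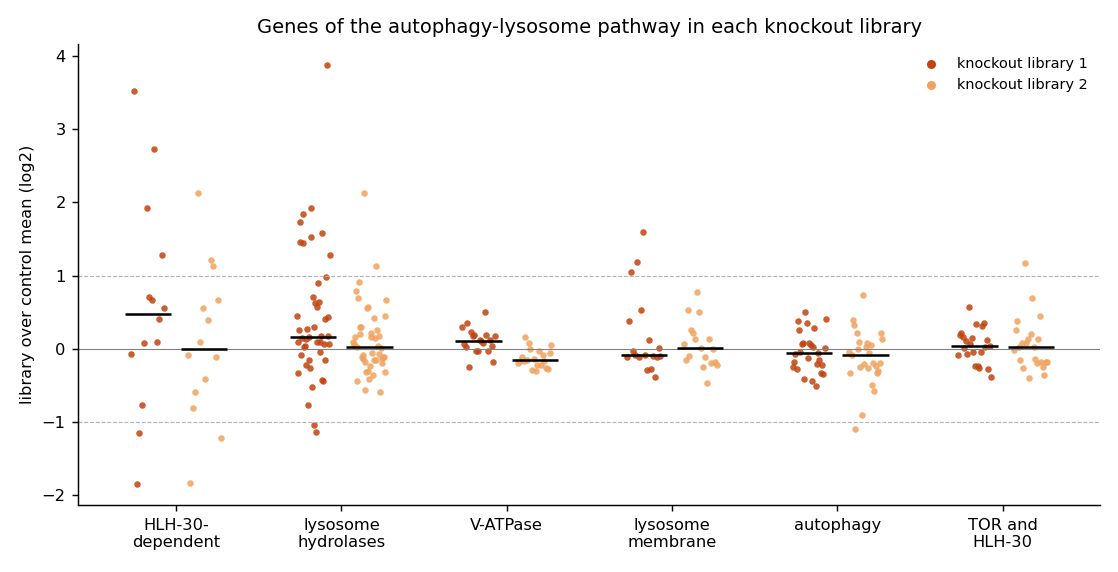
Each point is a gene, placed by the log2 of its normalized reads plus 1 in knockout library 1 (dark) or 2 (light) over the mean of the controls on that scale; black lines are medians and dashed lines mark 2-fold. Hydrolases and HLH-30-dependent genes spread widely in library 1, whereas V-ATPase, autophagy and TOR genes lay near 0 in both libraries, with few exceptions past 2-fold.

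Single genes of these lists moved by less than 2-fold with both libraries together. *mxl-3*, a Max-like repressor that opposes HLH-30 at lipase genes in fed worms, had 3964 and 6066 normalized reads in the knockout libraries, against 2329 and 3091 in the control libraries (log2 fold change 0.87; limma adjusted p = 0.397). *mml-1* and *mdl-1* belong to the same Myc-Max network. *mml-1* had 982.4 and 1048 in the knockout libraries, against 767.1 and 773.0 in the control libraries. *let-363*, the TOR kinase, had 3565 and 3764 in the knockout libraries, against 3109 and 3185 in the control libraries. *rsks-1*, the S6 kinase downstream of TOR, had 4288 and 4082 in the knockout libraries, against 5258 and 5192 in the control libraries. The groups did not overlap in these genes, and none passed limma's test. Of the 23 TOR and HLH-30 genes tested, 8 had both knockout libraries above both controls by any amount and 6 had both below. Over all genes it was 22.4% above and 23.4% below.

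Of 14 genes known for HLH-30-dependent expression in fasted or infected worms, *fmo-2* alone met the 2-fold rule. The lipase *lipl-5* had 3223 and 2104 normalized reads in the knockout libraries, against 1128 and 1557 in the control libraries, with no overlap. The invertebrate-type lysozymes *ilys-2* and *ilys-3* had both knockout libraries below both controls, and the lysozyme gene *lys-5* had 113.0 and 93.5 in the knockout libraries, against 57.2 and 87.7 in the control libraries. *ilys-3* had 905.0 and 1334 in the knockout libraries, against 2032 and 2003 in the control libraries, and *ilys-2* had 93.7 and 194.3, against 389.8 and 300.8. The lipase *lipl-2* had 932.5 and 360.0 in the knockout libraries, against 204.8 and 291.8 in the control libraries, with most of the gap in library 1. In all, 5 genes had both knockout libraries above both controls (*atg-18* besides those given) and 3 had both below, with *lgg-1*, the worm LC3 homologue, at 9278 and 9134 in the knockout libraries, against 9387 and 10118 in the control libraries. The other members, *lipl-1* and *lipl-3* among them, overlapped between the groups. Over all genes, both knockout libraries lay above both controls in 22.4% and below them in 23.4%. The list's median log2 fold change was 0.34, and 8 of its 14 genes were at least 2-fold apart between the knockout libraries. Of these, 5 were higher in library 1 and 3 in library 2, where 4.32% and 4.48% of all genes were.

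Several lists had many genes with both knockout libraries on one side of both controls by any amount, which held for 22.4% of all genes above and 23.4% below. Of 30 major sperm protein genes, which encode the motility protein of nematode sperm, 23 lay above and 0 below. Their median log2 fold change was 0.31, beside 0.23 between the 2 controls, and the reads summed over the listed genes came to 26138 and 27757 in the knockout libraries, against 23346 and 20098 in the control libraries. Among other sperm genes it was 24 of 55 above and 1 below. Their median log2 fold change was 0.23, beside a larger median of 0.26 between the 2 controls. Neuronal genes lay above in 15 of 27 cases and below in 4, with a median of 0.23. Cytosolic ribosomal proteins lay below in 45 of 81 cases and above in 10, with a median of -0.07. Proteasome and ubiquitin genes lay below in 22 of 35 cases and above in 1, but mostly through library 2, whose median over the control mean was -0.29, beside -0.04 in library 1. Germline and cell division genes lay below in 19 of 38 cases and above in 1, with medians of -0.23 in library 2 and -0.06 in library 1. These are whole animals, so fewer or more cells of a type and less or more RNA per cell cannot be told apart. Reads on genes of the mitochondrial genome, of which 13 were tested, summed to 222295 and 225929 in the knockout libraries, against 183470 and 194682 in the control libraries, and none was set apart by 2-fold. *mtl-2*, a metallothionein whose promoter drives the GFP of the transgene, had 237.2 and 461.8 in the knockout libraries, against 145.5 and 123.5 in the control libraries. Reads of *unc-54*, the body wall muscle myosin whose promoter drives Aβ, were 72688 and 62323 in the knockout libraries, against 84585 and 80905 in the control libraries. The Aβ transgene also carries *unc-54* sequence, so native and transgene reads of that part cannot be told apart.

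The 2 knockout libraries differed from each other more than the control pair did. Library 1 was at least 2-fold above library 2 in 681 genes (4.32%), and library 2 at least 2-fold above library 1 in 706 genes (4.48%). Counting both directions, the knockout libraries were that far apart in 1387 genes and the control libraries in 611 (3.88%). By direction, 286 were higher in control library 1 and 325 in control library 2. Among 12000 genes with a mean of at least 50 normalized reads, 337 were higher in knockout library 1 and 250 in library 2. Of the same 12000 genes, 54 were apart between the controls, counting both directions. Over all genes tested, 54 were at least 8-fold higher in library 1 and 17 in library 2, against 10 apart between the controls. The standard deviation of the log2 ratio within the pair was 0.64 for the knockout and 0.42 for the control. For the overexpression pair, in its own table of 15918 genes, it was 0.40, with 497 genes (3.12%) apart. A single library is set against a single library here, so these differences have no replicate check and no test.

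Placed against the controls, library 1 lay at least 2-fold above both controls in 392 genes (2.49%) and below both in 266 (1.69%). Library 2 lay above both in 303 genes (1.92%) and below both in 243 (1.54%). Of the 681 genes higher in library 1, library 1 was itself above both controls in 213 (31.3%), library 2 was below both in 23.2%, and neither library lay outside the controls by 2-fold in 327. Of the 706 genes higher in library 2, library 1 was below both controls in 174 (24.6%), library 2 was above both in 85 (12.04%), and neither library lay outside in 451.

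**Figure D3:**
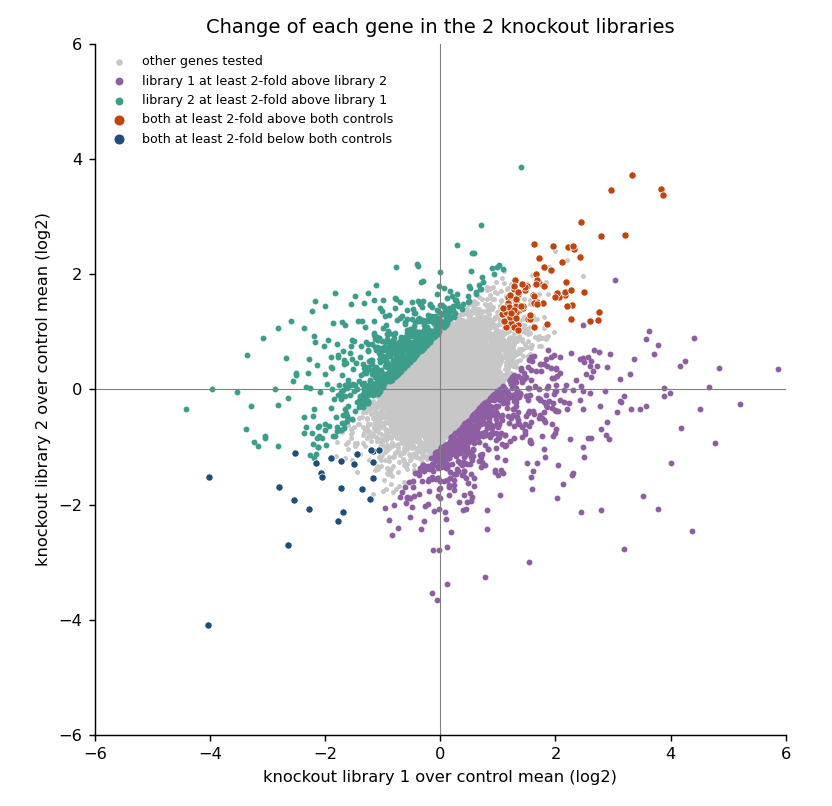
Each of the 15749 genes tested is placed by its log2 change over the control mean in knockout library 1 (horizontal) and library 2 (vertical), on the scale of normalized reads plus 1. The 84 and 24 genes set apart in both libraries lie in the upper right and lower left, and the 681 and 706 genes at least 2-fold apart between the libraries fill both sides of the diagonal.

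Genes of host defence were apart in both directions, more of them with library 1 high. Of the 343 tested, which join lectins, lysozymes, saposin-like and other small proteins, 66 (19.2%) were higher in library 1 and 26 (7.58%) in library 2. Over all genes it was 4.32% and 4.48%. Between the controls 15 of the 343 were apart, 6 higher in control library 1 and 9 in control library 2. In 48 of the 343 knockout library 1 lay at least 2-fold above both controls, against 8 for library 2. C-type lectins had 35 of 123 genes higher in library 1 and 8 higher in library 2. *clec-71* had 972.2 normalized reads in knockout library 1 and 20.4 in library 2, against 5.20 and 43.8 in the control libraries. *clec-4* had 358.4 and 11.1 in the knockout libraries, against 54.1 and 47.8 in the control libraries. *spp-4*, a saposin-like antimicrobial protein, had 219.9 and 0.925 in the knockout libraries, against 4.16 and 20.9 in the control libraries. Of the 4 libraries of this comparison, library 1 was the highest in each of these genes. The overexpression libraries also lay above the shared controls in them, with *clec-71* at 113.3 and 293.6 with overexpression, against 5.29 and 44.6 in the control, *clec-4* at 141.1 and 289.8, against 55.001 and 48.65, and *spp-4* at 27.8 and 45.1, against 4.23 and 21.3. Proteins with a von Willebrand factor A domain followed, with 13 of 27 higher in library 1 and 2 in library 2. *F28B4.3*, one of them, had 5023 and 174.0 in the knockout libraries, against 241.2 and 315.8 in the control libraries. With overexpression *F28B4.3* had 1977 and 3418, against 245.4 and 321.3 in the control.

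Some intestinal genes and acid hydrolases were apart as well. Of 28 intestinal genes 5 (17.9%) were higher in library 1 and 1 (3.57%) in library 2, where 4.32% and 4.48% of all genes were. Reads summed over the list were 134648 in knockout library 1 and 68264 in library 2, against 69442 and 75409 in the control libraries. *act-5*, the actin of intestinal microvilli, had 5216 and 890.2 in the knockout libraries, against 1068 and 1204 in the control libraries, beside 2016 and 3088 with overexpression, against 1086 and 1225 in the control of that table. *asp-1*, an aspartic protease, had 77394 and 35994 in the knockout libraries, against 37320 and 41474 in the control libraries. Library 2 lay below both controls for both genes. Of 46 acid hydrolases, 8 (17.4%) were higher in library 1 and 3 (6.52%) in library 2. In the same number, 8, library 1 was at least 2-fold above both controls, which held for 2.49% of all genes. *gba-4*, a glucocerebrosidase relative, had 310.5 and 18.5 in the knockout libraries, against 15.6 and 25.9 in the control libraries. Reads summed over the listed hydrolases were 271136 and 180341 in the knockout libraries, against 181231 and 197263 in the control libraries. Abundant genes weigh most in such a sum. The list's median log2 difference, library 1 minus library 2, was 0.19 in the knockout pair and -0.15 in the control pair. *cpr-2*, a cathepsin B gene, ran the other way, with 58.0 and 441.4 in the knockout libraries, against 86.3 and 115.5 in the control libraries. Direction thus differed between libraries, and within 1 enzyme family, for genes of the lysosome.

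**Figure D4:**
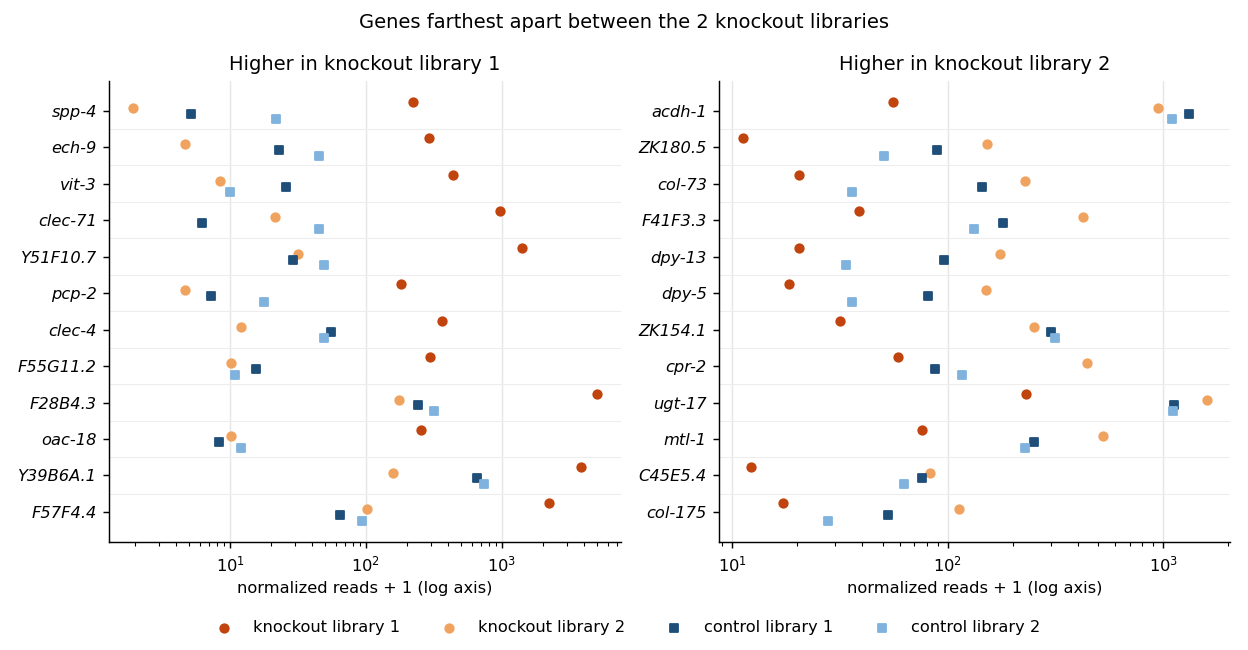
Normalized reads plus 1 on a log axis in each library, for the 12 genes with a mean of at least 50 that were farthest apart in each direction between the knockout libraries (circles; controls are squares). In the left panel library 1 lies above the other 3 libraries, and in the right panel library 1 lies below them. The other knockout library also lies outside both controls in some genes. Examples are *ech-9* (3.70, controls 21.8 and 43.8) on the left and *mtl-1* (521.9, controls 251.6 and 226.1) on the right.

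The genes farthest apart included others of metabolism. *ech-9*, an enzyme of fatty acid breakdown, had 291.2 and 3.70 normalized reads in the knockout libraries, against 21.8 and 43.8 in the control libraries. The yolk gene *vit-3* had 436.7 and 7.40 in the knockout libraries, against 24.9 and 8.96 in the control libraries, and shares sequence with *vit-4*, which was apart in the same direction. The abundant yolk gene *vit-2* was not 2-fold apart. *acdh-1*, an acyl-CoA dehydrogenase of propionate breakdown whose level is known to follow vitamin B12 in the diet, was the farthest apart in the other direction. It had 54.97 and 948.5 in the knockout libraries, against 1310 and 1094 in the control libraries, so library 1 was the one away from the controls. *icl-1*, the glyoxylate cycle enzyme, also had library 1 alone low, with 20184 and 47171 in the knockout libraries, against 47366 and 46797 in the control libraries. *ugt-17*, a UDP-glucuronosyltransferase, had 229.1 and 1598 in the knockout libraries, against 1125 and 1105 in the control libraries. The metallothionein *mtl-1* had 75.3 and 521.9 in the knockout libraries, against 251.6 and 226.1 in the control libraries.

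Oocyte and embryonic genes were lower in library 2. All 30 oocyte and eggshell genes were higher in library 1 than in library 2, by a median of 0.52 on the log2 scale, against 0.04 between the controls, and none reached 2-fold. *oma-2*, a zinc finger protein of oocyte maturation, had 8935 and 4719 normalized reads in the knockout libraries, against 6427 and 6474 in the control libraries. Library 1 lay above the controls and library 2 below them. Of 23 zygotic embryo genes, 6 (26.1%) were higher in library 1 and 0 in library 2, where 4.32% and 4.48% of all genes were. Library 2 was at least 2-fold below both controls in 5, which held for 1.54% of all genes. *sdz-30*, of a class named for its dependence on the embryonic factor SKN-1, had 102.8 and 29.6 in the knockout libraries, against 68.6 and 80.7 in the control libraries. Among F-box, MATH and BTB genes 63 of 375 (16.8%) were higher in library 1 and 18 (4.8%) in library 2, the latter near the share of all genes. The *fbxb* class accounted for 29 of these 63, and in 26 of its 96 genes library 2 was at least 2-fold below both controls. Both knockout libraries lay below both controls by any amount in 48 of those 96 and above in 1. Over all genes it was 23.4% below and 22.4% above. The *fbxb* class had a median log2 fold change of -0.51. These genes are many, alike and in part near-identical, so their reads are uncertain. Of the 30 major sperm protein genes, 0 were apart.

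Cuticle collagens, the structural proteins of the worm exoskeleton, differed in the opposite direction. Of 120 tested, 45 (37.5%, against 4.48% of all genes) were higher in library 2 and 2 in library 1. Library 2 lay above the control mean by a median of 0.36 on the log2 scale, and library 1 below it by 0.33. *col-73* had 19.3 and 227.6 normalized reads in the knockout libraries, against 143.4 and 34.9 in the control libraries. *dpy-13* had 19.3 and 174.0 in the knockout libraries, against 94.6 and 32.9 in the control libraries, and *dpy-5* had 17.3 and 149.0, against 80.04 and 34.9. In all 3 genes the controls themselves were over 2-fold apart and lay between the knockout libraries. Of the 120 collagens, 25 were apart between the controls, 17 of them higher in control library 1. *ptr* and other hedgehog-related genes, many of them expressed in skin with the moulting cycle, had 11 of 45 higher in library 2 and 1 in library 1. Of 17 genes of the adult hypodermis, 5 were higher in library 2 and 2 in library 1, and 7 were apart between the controls, and of 39 moulting genes 4 were higher in library 2 and 2 in library 1, with 2 apart between the controls.

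**Figure D5:**
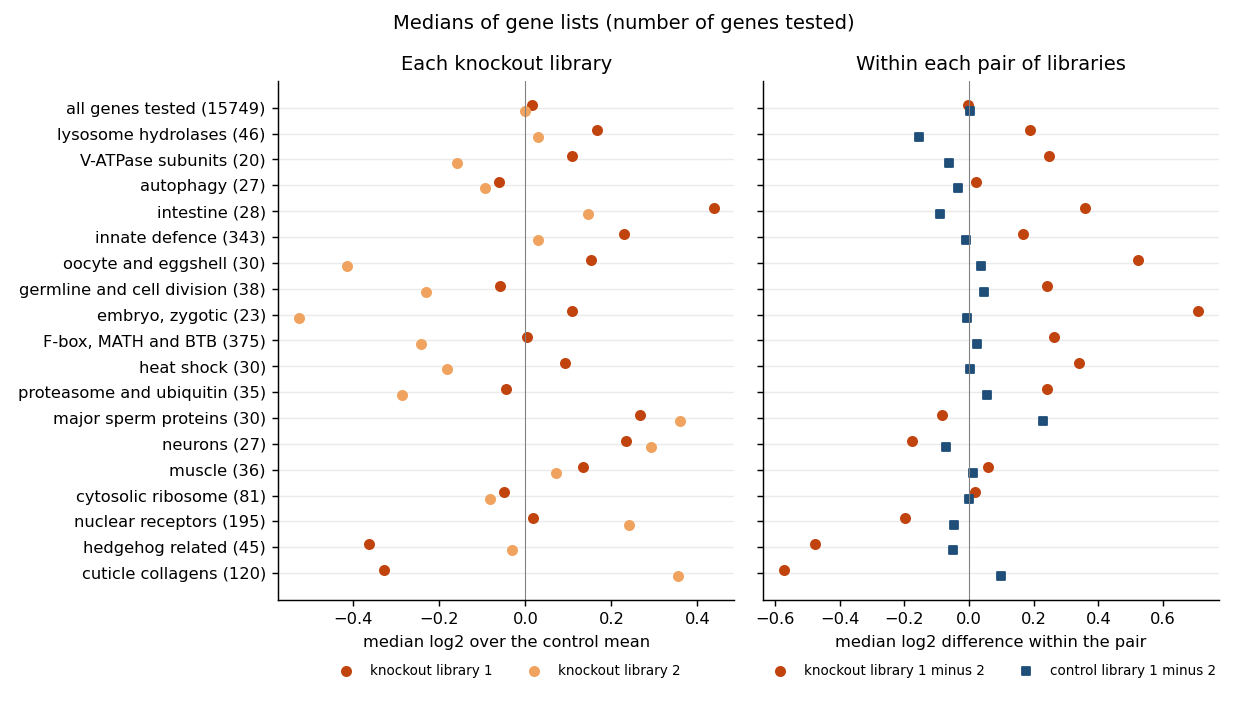
Medians over gene lists (number of genes tested in brackets), where the left panel gives each knockout library over the control mean, and the right panel the difference within the knockout pair (circles) and within the control pair (squares), all on the log2 scale. Oocyte, embryo and intestinal lists lie to the right for the knockout pair and cuticle collagens to the left, while in the lists plotted the control pair stays within 0.23 of 0.

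Heat shock genes, which encode chaperones, were higher in library 1 in 7 of 30 cases (23.3%) and in library 2 in 1 (3.33%). Over all genes it was 4.32% and 4.48%. *hsp-16.41* had 3461 and 1307 normalized reads in the knockout libraries, against 1976 and 1927 in the control libraries, so the controls lay between the knockout libraries. Reads of this gene are uncertain where the near-identical *hsp-16* genes share them. Detoxification enzymes had 23 of 239 (9.62%) higher in library 1 and 14 (5.86%) in library 2, the latter near the share of all genes. Among them, *gst-24* had 533.5 and 83.3 in the knockout libraries, against 82.1 and 92.6 in the control libraries. Ribosomal protein genes (81), muscle genes (36) and V-ATPase subunits (20) had 0 genes apart in either direction.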

How the data were processed

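The authors deposited, per the file headers, 1 table per comparison, and its signal is a count of reads divided by a size factor of the library. HISAT2, featureCounts and DESeq2 are named in the submitters' processing notes, without versions; the genome build is not given in the sources used here. The tables also hold the authors' fold changes and p-values, which were not used. Values in all libraries became whole reads when multiplied by 1 factor per library (tolerance 0.001; 100% of values).

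Genes that reached 10 normalized reads in 2 or more of the 4 libraries were tested with limma 3.58.1 (R 4.3.3) on log2 of the signal plus 1, with a mean trend, in the 4 knockout and control libraries. Genes were called at 2-fold or more with a Benjamini-Hochberg adjusted p below 0.05. edgeR 4.0.16 and DESeq2 1.42.0 on recovered reads, TMM scaling, other filters, pseudocounts and folds, and each library left out were alternatives. Tests were tried on simulated data.

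Gene lists (41) were written from gene names, and the genes, lists and rules were chosen with earlier results of these data known. Lists are described by counts and medians. Genes named are *hlh-30*, every called gene, the 12 with the widest gap in each direction among those with a mean of at least 50, and up to 4 per list and direction; others were named after their values were seen. Strand-specific counting is not stated.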

Additional observations from a re-analysis of the deposited data

How the results depend on the processing

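The 2 genes called by limma became 1 with no filter on low values, 0 without the mean trend (1564 genes had an unadjusted p under 0.05), 62 with DESeq2 and 306 with an unadjusted p and at least 2-fold. With a library left out the count ranged from 0 to 533. It was 507 and 533 without knockout library 1 and 2, where the spread comes from the controls alone and the lone knockout library is assumed to vary like them, and 0 without either control library (412 and 364 genes at an unadjusted p under 0.05). It stayed at 2 with a pseudocount of 0.1, edgeR, TMM scaling, a minimum of 10 in all 4 libraries or no minimum fold change. The genes above both controls numbered 326 at 1.5-fold, 5 at 4-fold, 44 with 10 in all 4 libraries and 372 with no filter, and those below 150, 3, 8 and 224. Leaving out a library gave 274 to 392 above and 73 to 266 below, since fewer libraries then have to meet the rule. Genes higher in knockout library 1 and library 2 numbered 157 and 93 at 4-fold, and those higher in library 2 numbered 437 with 10 in all 4 libraries. Without knockout library 1 the log2 fold change turned to -0.44 for *cpr-1*, -0.94 for *vit-3* and -2.47 for *spp-4*, which was also -0.088 without control library 1. With each library left out it lay between -0.44 and 1.74 for *cpr-1*, between -0.94 and 4.77 for *vit-3* and between -2.47 and 4.38 for *spp-4*. The adjusted p of *apc-10* reached 0.133 without the mean trend, and that of the unannotated locus on chromosome X 0.109 with no filter and 0.493 without the trend. No paired analysis was possible because the knockout columns carry no number that the sample labels match. With 2 libraries a group, and values under about 10 normalized reads resting on few reads, single weakly expressed genes are imprecise.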
